A study of Mus musculus with 18 samples.

Results

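The collagen genes of NIH3T3 cells were followed over 32 h after a dexamethasone pulse. Members were all genes of the deposited table whose symbol is Col, a number, a and a number, which gave 41 of 21937 genes. NIH3T3 is an established mouse embryonic fibroblast line, and dexamethasone is a glucocorticoid used to set the circadian clocks of cultured cells to a common phase. Every library came from cells given 100 nM dexamethasone for 2 h, after which the medium was replaced by normal culture medium (time 0 h), and cells were collected each 4 h from 0 h to 32 h. There were 9 time points with 2 libraries each, 18 in all, from total RNA. No untreated cells are among the samples, so every change below is a change from 0 h, the end of the pulse, and the hormone, the change of medium and time in culture cannot be told apart. Nothing in the labels says whether the replicates were separate cultures, so p-values measure only the spread between these libraries, which may be technical.

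Collagens are secreted proteins built from chains that wind into a triple helix, and each gene encodes the chain of a given type. Fibrillar collagens (types I, II, III, V, XI, XXIV and XXVII) form the fibres that give connective tissue its tensile strength, type IV collagens form the sheet-like network of basement membranes, and FACIT collagens (fibril-associated collagens with interrupted triple helices) decorate the surface of fibres. Fibroblasts are the main source of fibrillar collagen in connective tissue, and glucocorticoids are known as inhibitors of collagen synthesis in skin.

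The 41 genes held 11 fibrillar, 6 basement membrane, 9 FACIT, 4 type VI (beaded filament), 3 network-forming (types VIII and X), 2 multiplexin and 4 transmembrane genes, the anchoring fibril gene Col7a1 and Col28a1. Of these, 28 reached an average of 10 normalized reads (read counts divided by the library's size factor) and were tested: 9 fibrillar, 5 basement membrane, 5 FACIT, 3 type VI, 2 network-forming, and 1 each of Col7a1, Col18a1, Col17a1 and Col28a1. Col6a3 is not analysed here.

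Promoter sequences are shown for 4 genes that moved within the first 4 h, from the 5 with the smallest adjusted p at 4 h: Col4a5 and Col4a6, which lie side by side, point in opposite directions and fell together, the network-forming gene Col8a1, which also fell, and the fibrillar gene Col5a3, which rose. The fifth, Col27a1, has no window outside its own annotated transcripts. The sequences are from RefSeq (GRCm38.p6), run 5′ to 3′ on the gene's strand within the 250 bases before the start site, and leave out bases that another annotated form of the gene transcribes. Capitals mark CCAAT and GGGCGG on either strand. TATAAA was searched too and is in none of the 4.
Col4a5: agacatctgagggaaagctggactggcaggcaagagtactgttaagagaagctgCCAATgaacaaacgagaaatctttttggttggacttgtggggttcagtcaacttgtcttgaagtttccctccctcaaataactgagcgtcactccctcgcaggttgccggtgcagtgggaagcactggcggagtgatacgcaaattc
Col4a6: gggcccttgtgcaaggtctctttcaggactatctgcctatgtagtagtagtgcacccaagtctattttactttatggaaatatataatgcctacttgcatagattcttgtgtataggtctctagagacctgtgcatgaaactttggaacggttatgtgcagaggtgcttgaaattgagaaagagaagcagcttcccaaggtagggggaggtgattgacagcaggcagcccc
Col8a1: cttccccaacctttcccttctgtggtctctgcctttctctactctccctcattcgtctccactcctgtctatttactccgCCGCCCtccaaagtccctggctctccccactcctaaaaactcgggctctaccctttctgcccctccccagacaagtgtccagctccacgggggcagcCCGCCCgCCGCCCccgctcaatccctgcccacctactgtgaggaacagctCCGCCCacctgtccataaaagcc
Col5a3: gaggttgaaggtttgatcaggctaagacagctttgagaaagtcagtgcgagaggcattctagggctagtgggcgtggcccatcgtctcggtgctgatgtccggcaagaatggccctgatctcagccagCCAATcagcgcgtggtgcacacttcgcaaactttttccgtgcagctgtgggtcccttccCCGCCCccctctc
The stretches lie at chrX:141475169-141475369 (plus strand), chrX:141474096-141474326 (minus strand), chr16:57754738-57754987 (minus strand) and chr9:20815118-20815317 (minus strand). Col4a5 and Col4a6 start 1343 bases apart on opposite strands and face away from each other. Col4a1 and Col4a2 start 21 bases apart on chromosome 8, also on opposite strands, but so that their starts overlap. In the bases printed, Col8a1 holds only GGGCGG matches, Col5a3 holds a match of each kind, Col4a5 holds CCAAT alone, and the Col4a6 stretch holds neither. The full 250-base windows, used for the counts that follow, hold 1 GGGCGG for Col4a5, 1 for Col4a6 and 2 for Col5a3. Over the 250-base windows of 33 of the 41 genes (36 windows), GGGCGG was in 21, CCAAT in 13 and TATAAA in 5. The shares in all 32851 windows of the table were 32.74%, 33.85% and 12.37%. CACGTG, the E-box bound by the clock proteins CLOCK and BMAL1, was in none of the 36 windows against 6.021% of all windows, and TGTTCT, the half-site of glucocorticoid response elements, was in 2 of 36 against 16.08%. A match says only that the letters are there, and the windows do not cover distant sites.

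Library depth ran from 25.4 M to 38.9 M reads in genes, and normalized totals from 30.0 M in a 32 h library to 35.1 M in a 0 h library. All 8 fibroblast markers searched were present, with a summed level between 398566 and 606504 normalized reads, 603987 and 606504 at 0 h and 431285 and 465018 at 32 h. Most of this fall was in Fn1, with means of 413036 at 0 h and 279159 at 32 h. By limma 2 of the 8 were higher at 32 h and 3 lower, against 40.8% of all genes changed. Markers of endothelial cells summed to between 42.5 and 108 and those of adipocytes to between 25.2 and 63.7, with Kdr and Lep at 0 in every library. Those of leukocytes summed to between 303 and 420, mostly from Cd68 and Csf1r, with Cd3e at 0 in every library. Among chondrocyte and osteoblast markers Sox9 and Runx2 made up most of the signal and Ibsp was at 0. The osteoblast sum was 3804 and 3512 at 0 h and 1781 and 1558 at 32 h, with Runx2 lower by limma (-1.14 log2, adjusted p = 7.65e-08). The chondrocyte sum was 2182 and 2768 against 1835 and 1999, and the sum of 7 epithelial markers 1197 and 902 against 245 and 215. Most of the epithelial fall was in Krt8, with means of 935 at 0 h and 148 at 32 h. Krt14 had means of 71.6 and 58.7 at these times. Epcam, Cdh1, Krt5 and Cldn4 had means between 0.331 and 1.44 over all libraries. The part of these differences in the results was not tested.

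The share of reads held by collagen genes was taken within each library, without correction for transcript length. The 41 genes together held between 2.10% and 2.68% of the reads of a library, and the fibrillar class alone held between 1.70% and 2.12%. The share of all 41 was 2.40% and 2.68% at 0 h (replicates 1 and 2) and 2.10% and 2.12% at 24 h, so the 24 h libraries lay below both of 0 h; no test was made of a sum over the genes. Without Col1a1, Col1a2 and Col3a1 the share was 0.793% and 0.850% at 0 h and 0.593% and 0.625% at 24 h. These shares are of each library's own reads and do not rest on the size factors.

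Type I collagen chains were the most abundant. Per kilobase of transcript, Col1a1 stood at 42413.5 and Col1a2 at 37362 normalized reads (mean of 18 libraries), ahead of Col3a1 at 10294, Col5a2 at 7324, Col6a1 at 6740 and Col16a1 at 4812. Of the 28 tested genes the lowest per kilobase was Col4a3, at 2.28. The 13 genes below the limit for testing included Col11a1, with a mean of 6.50 normalized reads, and Col9a1 and Col13a1, which had no read in any library. A count of 0 allows up to 3 reads among the 572 M of all libraries. In RNA from whole cultures, fewer cells expressing a gene and less RNA per cell cannot be told apart.

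Over the whole series, 19 of the 28 tested genes differed among the 9 times, where 52.0% of all 12393 tested genes did (limma moderated F, adjusted p under 0.05). With a linear drift beside a 24 h wave, 20 of 28 changed, 3 upwards and 17 downwards, against 55.5% of all genes, of which 28.2% of all tested rose and 27.3% fell. The median slope of the collagen genes was -0.33 log2 units per 24 h, against 0.01 for all tested genes. The 3 that rose were Col4a6, Col6a4 and Col18a1.

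**Figure D1:**
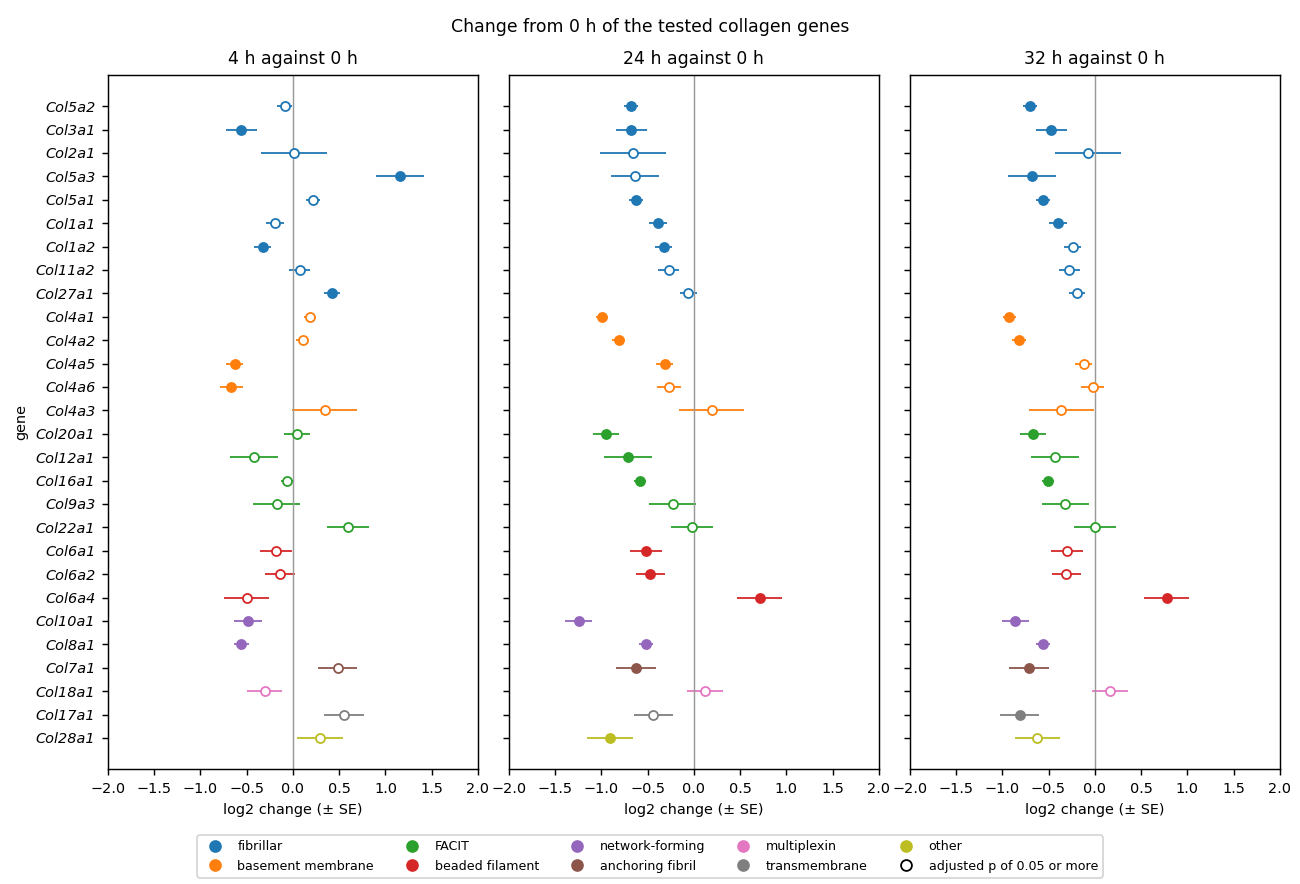
Log2 change from 0 h (x axis, points, with standard errors as bars) of the 28 tested collagen genes (y axis, coloured by class) at 4 h, 24 h and 32 h. Filled points passed an adjusted p of 0.05: 8 genes at 4 h, in both directions, then 18 at 24 h and 14 at 32 h, of which only Col6a4 lies to the right.

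Within the first 4 h, 8 of the 28 genes had changed, 2 upwards and 6 downwards, where 21.5% of all tested genes changed (11.0% up and 10.5% down). The median change was -0.08 log2 for the collagen genes and -0.0015 for all genes. The 2 that rose, Col5a3 and Col27a1, are fibrillar. The 6 that fell were Col4a5 and Col4a6 of the basement membrane class, Col8a1 and Col10a1 of the network-forming class, and the fibrillar genes Col1a2 and Col3a1. No FACIT gene passed at 4 h with limma, edgeR or DESeq2. An unadjusted p under 0.05 in limma was found for 1 of 5, against 4323 of all 12393 tested genes. With the replicate number as a block 2 of 5 passed, Col12a1 lower and Col22a1 higher. For each of the 8 genes the 4 h libraries lay outside the range of the 0 h libraries, with folds between 1.25 and 2.24. The number rests on 2 libraries a time. The calls of Col4a5, Col4a6 and Col8a1 held in every alternative. With no filter on low genes 5 passed, and the share of all genes there is not given. With the replicate number as a block 17 passed (7 up, 10 down, against 37.6% of all genes). Of the fits that left out a library, the fewest passed without the second 0 h library. Such a fit has 1 library at that time and less power for every gene.

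At 8 h 9 genes differed from 0 h, 2 upwards (Col5a1 and Col5a3) and 7 downwards, against 34.4% of all genes (17.3% up and 17.1% down). Their median change was -0.20 log2, against -0.0043 for all genes. With the block 15 passed, against 48.2% of all genes. Of the fits that left out a library, the fewest again passed without the second 0 h library.

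By 24 h most of the tested genes were below their 0 h level. Of the 28 genes, 17 were lower than at 0 h and 1, Col6a4, was higher, against 37.2% of all genes changed and 18.6% lower. The median was -0.52 log2 for collagen genes and 0.01 for all genes. Of the 28 estimates 25 were below 0, against 6061 of all 12393. The lower genes were 5 of 9 fibrillar, 3 of 5 basement membrane, 3 of 5 FACIT, 2 of 3 type VI and 2 of 2 network-forming genes, with Col7a1 and Col28a1. At 32 h 13 were lower and Col6a4 higher, against 40.8% of all genes changed and 20.4% lower, with a median of -0.41 log2. With the replicate block 20 were lower and 1 higher at 32 h, against 53.6% of all genes changed and 3353 of the 12393 lower.

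How many genes fell late depended on how libraries were scaled. When every library was given the same total, which moved the median of all genes by 0.20 log2 at 24 h and 0.21 at 32 h, 10 collagen genes were lower and 1 higher at 24 h, against 54.0% of all genes changed and 10.2% lower. At 32 h, 9 were lower and 1 higher, against 55.4% of all genes changed and 10.5% lower. With quantile normalization 9 were lower and 2 higher at 24 h, against 38.3% of all genes changed, and Col1a2 was among the higher. Without the second 0 h library fewer passed at 24 h, all lower. The 8 genes lower at both 24 h and 32 h in every alternative tried were Col4a1, Col4a2, Col5a1, Col5a2, Col8a1, Col10a1, Col16a1 and Col20a1.

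Between 24 h and 32 h no collagen gene passed by limma, edgeR or DESeq2, against 0.0403% of all genes by limma. An unadjusted p under 0.05 in limma was found for 2 of 28, against 995 of all 12393 tested genes. With the block 3 passed, all higher, against 1.95% of all genes (132 of 12393 higher). They were Col4a6 (adjusted p = 0.0219, limma), Col6a1 (adjusted p = 0.0181) and Col12a1 (adjusted p = 0.0283).

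Type I collagen, the main fibre of skin, tendon and bone, is built from the products of Col1a1 and Col1a2. Col1a1 stood at 278181 and 295123 normalized reads at 0 h (replicates 1 and 2, in this order throughout), 309059 and 265139 at 8 h, 226448 and 210596 at 24 h and 219811 and 216315 at 32 h. The 24 h and 32 h libraries were all below those of 0 h. At 4 h Col1a1 had a mean of 250520 ± 21997 (SD, n = 2). That change, -0.20 log2, missed the threshold (limma adjusted p = 0.170) and passed with the block (adjusted p = 0.0455). At 32 h Col1a1 had fallen by 0.39 ± 0.10 on the log2 scale (± SE, limma adjusted p = 0.00511). The call was lost with equal totals, and with quantile normalization the direction turned.

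Col1a2 fell earlier. It stood at 217497 and 251860 at 0 h, 186144 and 187398 at 4 h, 185360 and 188248 at 24 h and 189495 and 207982 at 32 h. The drop was in place at 4 h, at -0.33 ± 0.09 log2 (adjusted p = 0.0215), and at 32 h the change was -0.24 ± 0.09, with an adjusted p of 0.0504, or 0.00290 with the block. The 4 h call was lost without the first or second 4 h library, without the second 0 h library, with no filter and with quantile normalization. Quantile normalization also turned the later direction, to 0.40 log2 at 24 h (adjusted p = 0.00393) and 0.47 at 32 h (adjusted p = 0.00114), both higher than 0 h. That setting replaces each value by the mean for its rank within the library. By mean Col1a1 and Col1a2 ranked 3 and 5 among all genes, so their direction under it hangs on the order of few genes. Read for read within a library, the ratio of Col1a2 to Col1a1 started from 0.82 ± 0.05 (SD, n = 2), dipped to 0.69 ± 0.07 by 8 h and ended on 0.91 ± 0.07. The 8 h and 32 h values differ by more than the spread between replicates and are not a molar ratio of chains.

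Col3a1 encodes type III collagen, which forms mixed fibres with type I. It had 69819 and 90596 normalized reads at 0 h, 49888 and 58454 at 4 h, 45484 and 54530 at 24 h and 51723 and 63920 at 32 h. Both 0 h libraries were above all later ones. Replicate 2 was above replicate 1 at all 9 times, by a median of 1.21 times. The change was -0.56 ± 0.17 log2 at 4 h (adjusted p = 0.0312) and -0.68 ± 0.17 at 24 h (adjusted p = 0.00619). Without the second 0 h library it missed the threshold at 4 h, 8 h, 24 h and 32 h alike.

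Type V collagen, a minor component that sets fibre diameter, showed different courses for its chains. Col5a2 stood at 64331 and 60584 at 0 h, 61939 and 55460 at 4 h, 52412 and 50539 at 12 h, 38406 and 39461 at 24 h and 36883 and 39879 at 32 h. By 32 h it had changed by -0.70 ± 0.08 log2 (adjusted p = 7.82e-06). Col5a1 was above its 0 h level first, at 35508 and 36872 at 0 h, 43372 and 40611 at 4 h and 44234 and 40114 at 8 h, and then below it, at 23702 and 23217 at 24 h and 23802 and 25214 at 32 h. The rise at 8 h was 0.22 ± 0.08 log2 (adjusted p = 0.0385, lost without either 0 h library, without the first 8 h library, with no filter and without a variance trend), and the fall at 32 h was -0.56 ± 0.08 (adjusted p = 4.63e-05). The ratio of Col5a2 to Col5a1 started from 1.73 ± 0.12, dipped to 1.33 ± 0.01 by 8 h and ended on 1.57 ± 0.02 (SD, n = 2).

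Col5a3, the least abundant type V chain, made the largest early rise among the 28. It stood at 642 and 621 normalized reads at 0 h, 1676 and 1191 at 4 h, 1711 and 1105 at 8 h, 1126 and 642 at 12 h, 786 and 530 at 16 h and 403 and 384 at 32 h. Both libraries at 4 h and 8 h were above every library of 0 h, and from 20 h on all were below them. The change at 4 h was 1.16 ± 0.26 log2, or 2.24-fold (adjusted p = 0.00632), and it missed the threshold without the first 4 h or the second 0 h library. From 8 h to 32 h, a comparison chosen after the data were seen, Col5a3 fell by 1.80 on the log2 scale (adjusted p = 0.000264). That call held in every alternative. At 32 h Col5a3 differed from 0 h by -0.68 ± 0.26 log2 with an adjusted p of 0.0489 (limma). The call was lost in 17 of 29 alternatives.

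The remaining fibrillar genes were Col27a1, Col11a2 and Col2a1. Col27a1, which encodes a chain found mainly in cartilage, peaked sharply at 4 h, at 4430 and 4488 against 3498 and 3167 at 0 h and 3327 and 3113 at 8 h. The rise was 0.42 ± 0.09 log2 (adjusted p = 0.00411, or just above 0.05 without the second 0 h library). Col11a2, a chain of type XI collagen, was at 922 and 1043 at 0 h, 1135 and 1048 at 8 h and 824 and 795 at 32 h, and passed between 8 h and 32 h at -0.43 ± 0.11 log2 (adjusted p = 0.0128). Col2a1, the cartilage collagen, stayed between 12.1 and 32.0 normalized reads and passed no comparison.

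**Figure D2:**
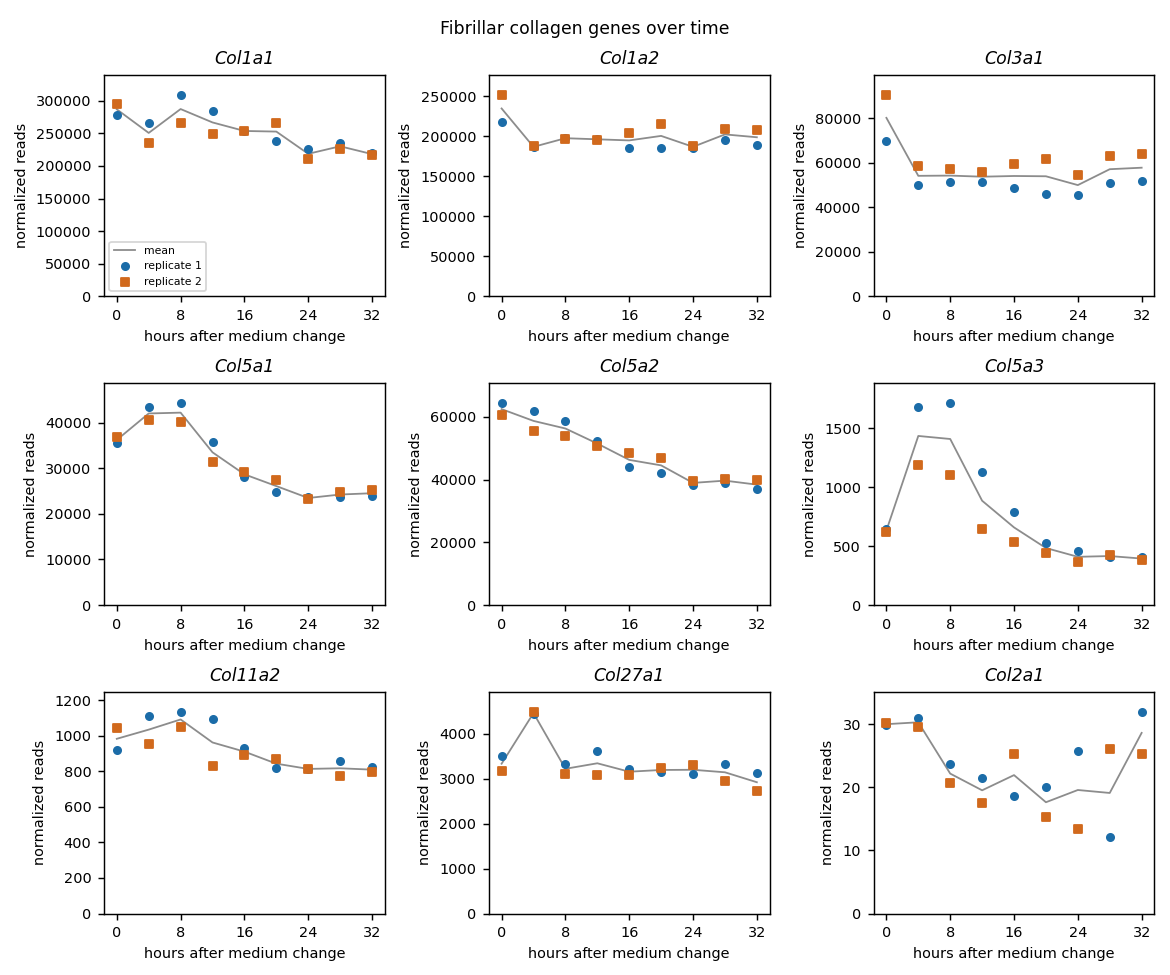
Normalized reads (y axis, from 0) of the 9 tested fibrillar collagen genes against hours after the medium change (x axis), with replicate 1 as circles, replicate 2 as squares and the mean as a line. Col5a3 is between 1105 and 1711 at 4 h and 8 h and ends at 403 and 384, Col27a1 peaks at 4 h, and Col5a2 falls steadily to 24 h.

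The basement membrane class split into opposed pairs. Col4a1 and Col4a2, whose products form the common type IV network, kept or exceeded their 0 h level at 4 h and then fell to a plateau. Col4a1 stood at 29185 and 28143 normalized reads at 0 h, 32437 and 32624 at 4 h, 21120 and 19971 at 12 h, 14936 and 13947 at 24 h and 14425 and 15853 at 32 h. Col4a2 stood at 22940 and 22844 at 0 h, 25102 and 24150 at 4 h, 18706 and 17628 at 12 h, 13309 and 12738 at 24 h and 12322 and 13672 at 32 h. Every library from 12 h on was below both 0 h libraries for either gene. By the end of the series Col4a1 had dropped 1.90-fold (-0.92 ± 0.07 log2, with an adjusted p of 1.36e-07) and Col4a2 1.76-fold (-0.82 ± 0.07, adjusted p = 9.73e-07), and the calls at 24 h and 32 h held in every alternative. Only Col10a1, with -0.86 log2, lay between them, and no other gene of the 28 was lower at 32 h.

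Col4a5 and Col4a6, whose products assemble with each other in some basement membranes such as those around smooth muscle, went the other way in time. Col4a5 stood at 5598 and 6568 at 0 h, 3748 and 4096 at 4 h, 3832 and 3951 at 8 h, 4856 and 4883 at 24 h and 5371 and 5803 at 32 h. Col4a6 stood at 2802 and 3353 at 0 h, 1813 and 2058 at 4 h, 1734 and 1953 at 8 h, 2490 and 2602 at 24 h and 2816 and 3239 at 32 h. For both genes the 4 h and 8 h libraries lay below every 0 h library, and the 32 h libraries overlapped those of 0 h. At 8 h Col4a5 had fallen by 0.64 (adjusted p = 0.000137) and Col4a6 by 0.74 on the log2 scale (adjusted p = 0.000565). From 8 h to 32 h they rose again by 0.52 ± 0.09 (adjusted p = 0.00108) and 0.71 ± 0.13 log2 (adjusted p = 0.00113). The calls at 4 h, at 8 h and between 8 h and 32 h held in every alternative. At 32 h against 0 h neither passed, with estimates of -0.12 ± 0.09 and -0.02 ± 0.13.

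Ratios within a library, which do not rest on size factors, show the split. The ratio of Col4a1 to Col4a5 started from 4.75 ± 0.66, reached 8.31 ± 0.49 by 4 h, came back to 4.60 ± 0.30 by 12 h and ended, after 2.97 ± 0.16 at 24 h, on 2.71 ± 0.03 in the 32 h libraries (SD, n = 2). Within the pairs the ratios moved far less: Col4a2 to Col4a1 stayed between 0.74 and 0.93 and Col4a6 to Col4a5 between 0.43 and 0.56 over the 18 libraries. The annotation used here places 22 bases of Col4a1 exons over Col4a2. Whether reads of Col4a1 and Col4a2 were exchanged was not tested. Col4a3, the only other tested gene of the class, stood between 12.1 and 32.2 normalized reads. It passed only between 8 h and 32 h, at -1.09 ± 0.35 log2 (adjusted p = 0.0327), a call lost without any of the 4 libraries compared and with no filter. Col4a4 was under the limit, with a mean of 2.97.

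**Figure D3:**
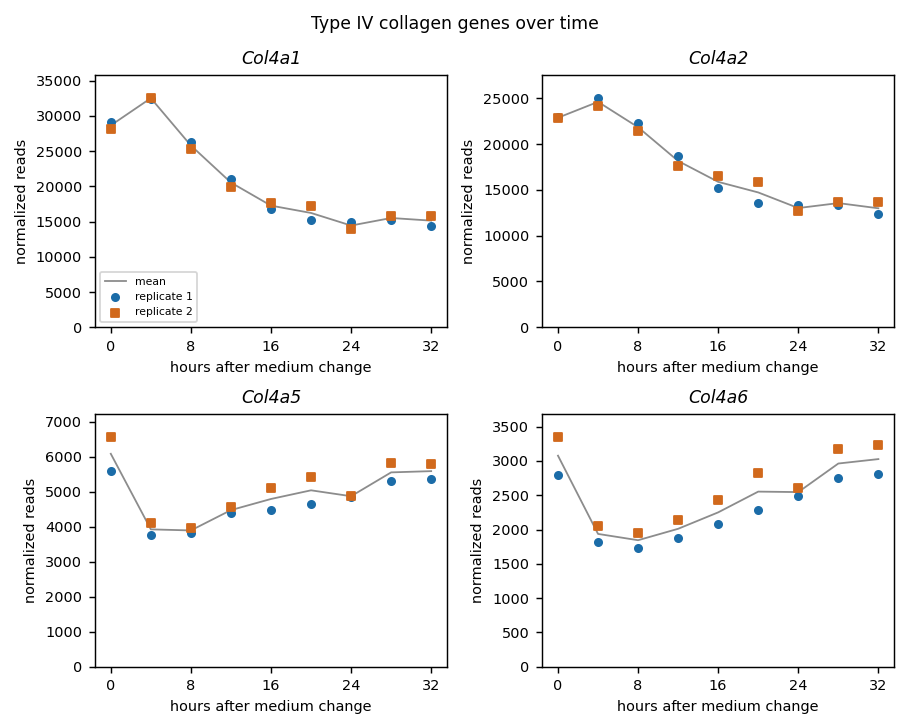
Normalized reads (y axis, from 0) of 4 type IV collagen genes against hours after the medium change (x axis), circles for replicate 1, squares for replicate 2 and a line for the mean. Col4a1 and Col4a2 are highest at 4 h and lowest from 24 h on, while Col4a5 and Col4a6 are lowest at 4 h and 8 h and are back near their 0 h level at 32 h.

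Comparing 32 h with 8 h over all members, 16 of 28 differed, 13 lower and 3 higher. Of all genes 27.6% differed, 14.1% lower and 13.5% higher. The comparison was chosen after the data were seen. The 3 that rose were Col4a5, Col4a6 and Col18a1, a multiplexin of basement membranes that went from 66.4 and 56.3 at 8 h to 101 and 115 at 32 h (0.81 ± 0.19 log2, adjusted p = 0.00687, lost without the second 8 h or 32 h library). All 5 tested basement membrane genes passed, 2 up and 3 down. Of the fits that left out a library, the fewest genes passed without the first 8 h library.

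**Figure D4:**
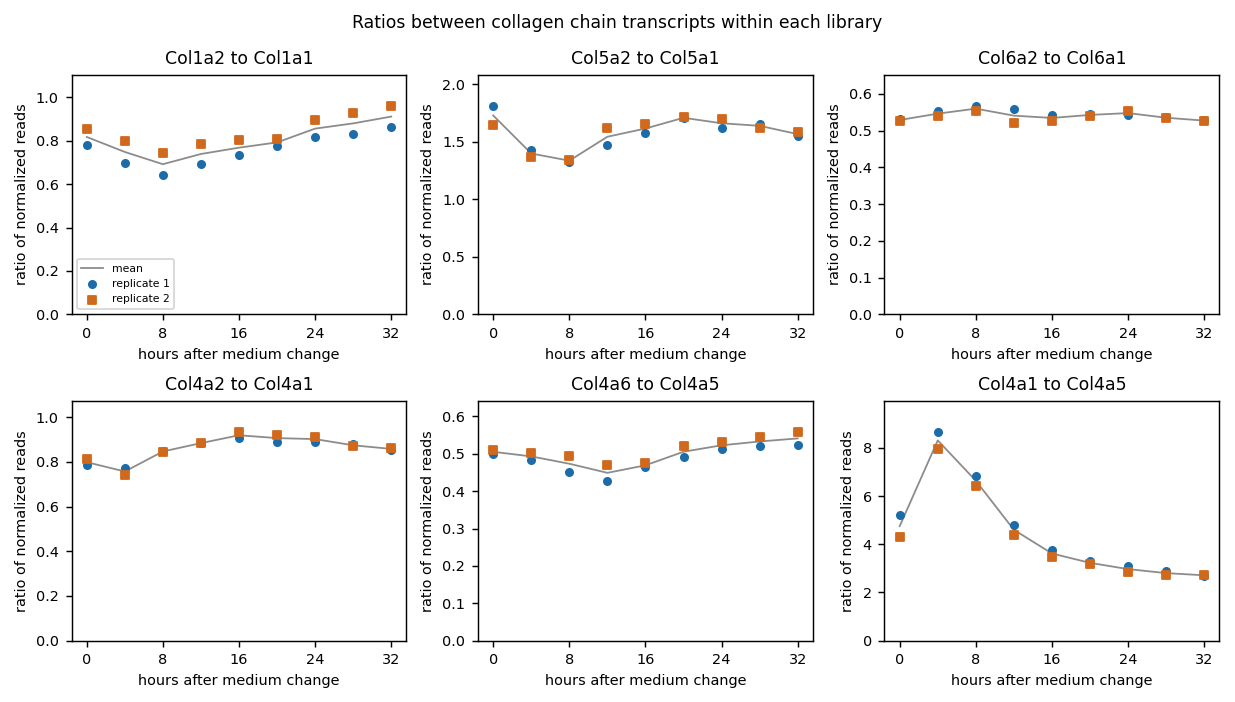
Ratios of normalized reads between collagen chains within each library (y axis, from 0) against hours after the medium change (x axis), circles for replicate 1, squares for replicate 2 and a line for the mean. Col4a1 to Col4a5 goes from 8.31 at 4 h to 2.71 at 32 h, while Col6a2 to Col6a1 stays between 0.52 and 0.57.

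Among FACIT genes Col16a1 and Col20a1 fell and did not return. Col16a1, the most abundant of the class per kilobase, stood at 31602 and 32143 at 0 h, 30672 and 30111 at 4 h, 27578 and 26446 at 8 h, 21818 and 20695 at 24 h and 22224 and 22826 at 32 h. All libraries from 4 h on were below those of 0 h. The change at 32 h was -0.50 ± 0.06 log2 (adjusted p = 2.94e-05). Col20a1 stood at 592 and 703 at 0 h, 682 and 650 at 4 h, 307 and 361 at 24 h and 396 and 416 at 32 h, with a change of -0.67 ± 0.14 log2 at 32 h (adjusted p = 0.00185). Col22a1, a collagen of tissue junctions, stood at 70.4 and 65.9 at 0 h, 101 and 106 at 4 h and 78.0 and 59.7 at 32 h. It missed the threshold at 4 h (0.59 ± 0.23, adjusted p = 0.0782) and passed with the block (adjusted p = 0.0131). Col9a3 ranged from 58.9 to 117 and passed no comparison, and 4 FACIT genes were under the limit.

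Col12a1, a FACIT collagen of dense connective tissue, and the type VI genes Col6a1 and Col6a2 shared a gap between the replicates. Col12a1 stood at 19368 and 25426 at 0 h, 12417 and 15399 at 8 h, 11217 and 16405 at 24 h and 14229 and 19154 at 32 h. Replicate 2 was higher at all 9 times, by a median of 1.35 times for Col12a1, 1.21 for Col6a1 and 1.20 for Col6a2. Col6a1 stood at 31158 and 39230 at 0 h, 24536 and 29608 at 8 h, 22198 and 26789 at 24 h and 25412 and 31695 at 32 h. Each replicate by itself was below its own 0 h level at 8 h, 24 h and 32 h. Without the block the 3 genes passed only at 24 h among the times compared with 0 h, with adjusted p of 0.0436, 0.0281 and 0.0322. With the block they passed at 4 h, 8 h, 24 h and 32 h. At 32 h the blocked adjusted p was 1.21e-05 for Col12a1 (-0.43 ± 0.06 log2), 1.15e-05 for Col6a1 (-0.30 ± 0.04) and 4.32e-05 for Col6a2 (-0.31 ± 0.05). These 2 type VI chains kept a steady proportion, with Col6a2 to Col6a1 between 0.52 and 0.57 in the 18 libraries.

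Col6a4, a low member of the type VI family, was the only gene higher than at 0 h at 24 h and at 32 h. It stood at 17.2 and 17.9 at 0 h, 12.6 and 11.6 at 4 h, 24.9 and 34.5 at 24 h and 31.0 and 30.3 at 32 h. The 32 h libraries were above both of 0 h, by 0.78 ± 0.24 log2 (adjusted p = 0.0195). The call was lost with DESeq2 and without any of the 4 libraries compared.

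Both network-forming genes tested fell early and were still below their 0 h level at the end. Col8a1, a chain of the hexagonal lattice of vessel walls and Descemet's membrane, went from 8574 and 10334 at 0 h to 6534 and 6270 at 4 h and was 6295 and 6483 at 32 h. The change was complete at 4 h, at -0.56 ± 0.08 log2 (adjusted p = 0.000263), and it was -0.56 ± 0.08 again at 32 h (adjusted p = 6.04e-05). Col10a1, best known from hypertrophic cartilage, fell further and for longer, from 358 and 336 at 0 h to 180 and 182 at 8 h, 112 and 114 at 20 h and 203 and 179 at 32 h. The 20 h libraries were the lowest of the 18. By 24 h the drop was 2.37-fold (-1.24 ± 0.15 log2, with an adjusted p of 1.56e-05), the largest fold among the called genes at that time. The calls of both genes at 8 h, 24 h and 32 h held in every alternative.

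Col7a1, which forms the anchoring fibrils under the epidermis, had replicate 1 above replicate 2 at all 9 times. It stood at 4206 and 4009 at 0 h, 6718 and 4908 at 4 h, 6127 and 4464 at 8 h, 3057 and 2320 at 24 h and 2692 and 2337 at 32 h. It missed the threshold at 4 h (0.48 ± 0.21 log2, adjusted p = 0.122) and passed with the block (adjusted p = 8.80e-05). Its change at 32 h was -0.71 ± 0.21 log2 (adjusted p = 0.0156), a call lost with equal totals and without the first 0 h or the second 32 h library. Col17a1, a transmembrane collagen of hemidesmosomes, was at 58.7 and 53.6 at 0 h, 80.4 and 85.0 at 4 h and 27.3 and 36.4 at 32 h (-0.81 ± 0.21 log2 at 32 h, adjusted p = 0.00685, lost without the first 32 h library).

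**Figure D5:**
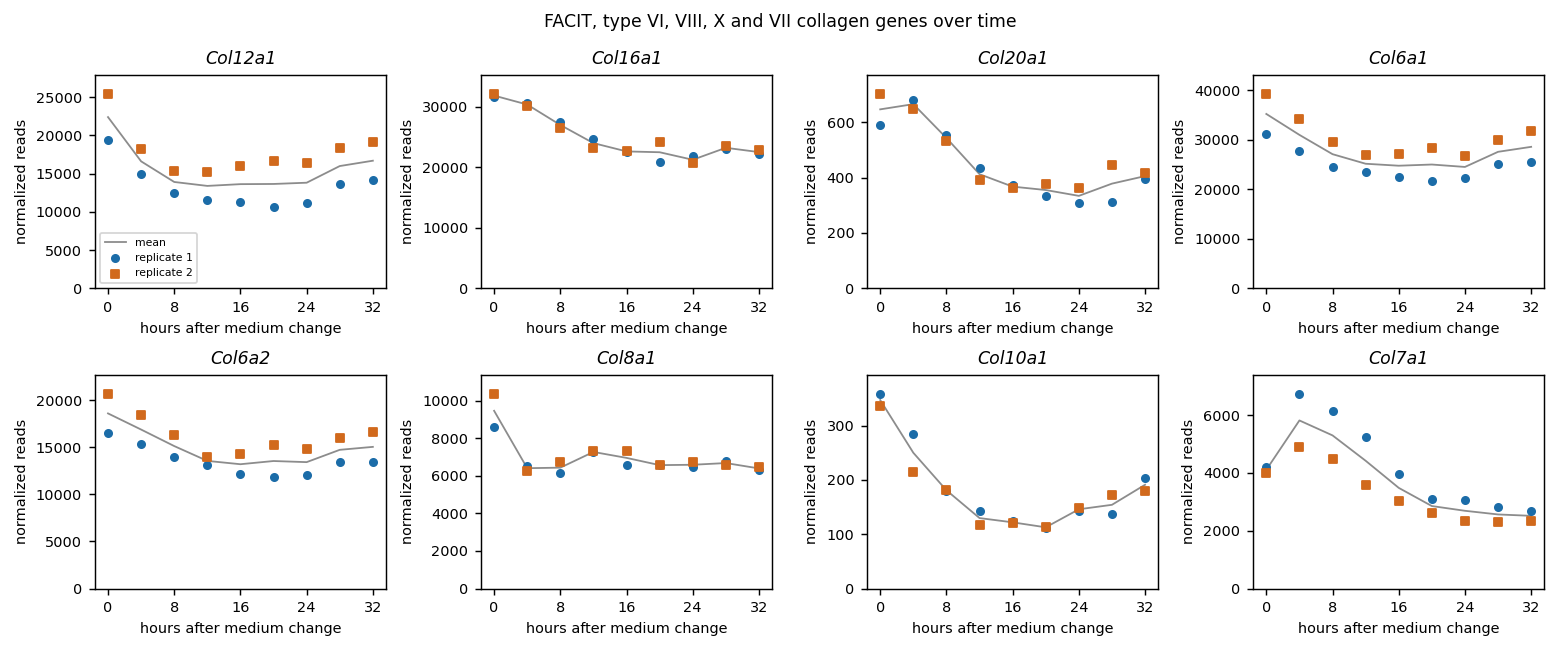
Normalized reads (y axis, from 0) of 3 FACIT genes, 2 type VI genes, 2 network-forming genes and Col7a1 against hours after the medium change (x axis), circles for replicate 1, squares for replicate 2 and a line for the mean. Replicate 2 is above replicate 1 at all 9 times for Col12a1, Col6a1 and Col6a2, and below it at all 9 for Col7a1.

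The series was laid out to follow circadian rhythm, so each gene was fitted with a 24 h cosine and sine. No collagen gene passed by limma or edgeR, against 0.371% of all genes by limma. An unadjusted p under 0.05 in limma was found for 2 of 28, against 2107 of all 12393 tested genes. DESeq2 called 1 of 28, Col10a1, against 556 of the 12393. With a linear term added, 9 of 28 passed, against 17.0% of all genes: Col4a1, Col4a2, Col5a1, Col5a3, Col10a1, Col16a1, Col18a1, Col20a1 and Col28a1. The 32 h hold little more than a single cycle, so a wave that repeats and a change that happens once cannot be told apart by this fit alone.

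The overlap of day 1 with day 2 gives a direct comparison. The step from 0 h to 8 h and the step from 24 h to 32 h differed in 7 of 28 genes, 6 with a lower step on day 1 and 1 with a higher, against 20.2% of all genes (10.5% lower and 9.76% higher). Col10a1 changed by -0.94 log2 on day 1 and 0.38 on day 2 (adjusted p of the difference 0.000737). Col4a6 changed by -0.74 and 0.25 (adjusted p = 0.00195). Col5a3 changed by 1.12 and -0.04 (adjusted p = 0.0378). The number was 16 with the block, against 36.4% of all genes. Of the fits that left out a library, it was lowest without the second 0 h or the second 32 h library.

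Collagen chains need enzymes and chaperones before they can be secreted, and 43 such genes with collagen receptors were read from a list, of which 36 were tested. At 4 h 7 were higher and 2 lower, a share of 25.0% against 21.5% of all genes. With the block 10 were higher and 10 lower, against 37.6% of all genes (2327 higher and 2335 lower of 12393). At 32 h 21 were lower and 0 higher, against 40.8% of all genes changed and 20.4% lower, with a median of -0.36 log2 against 0.01 for all genes. By edgeR 21 passed there, against 5057 of all 12393 tested genes, and by DESeq2 22, against 4743. An unadjusted p under 0.05 in limma was found for 24 of 36, against 6033 of the 12393. Of the 36 estimates 34 were below 0, against 6030 of the 12393. With equal totals 12 were lower and 4 higher at 32 h, against 55.4% of all genes changed and 10.5% lower.

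The hydroxylases, listed with their partners Crtap and P4hb, modify proline and lysine so that the helix is stable and can be cross-linked. At 4 h 4 of 11 were higher, against 11.0% of all genes, and at 32 h 7 of 11 were lower, against 20.4%. By edgeR 3 passed at 4 h, against 2503 of all 12393 tested genes. P4hb passed narrowly at 4 h (limma adjusted p = 0.0491) and was lost with quantile normalization (adjusted p = 0.0858). With equal totals 5 were higher at 4 h, against 1682 of all 12393 tested genes, and 5 lower at 32 h, against 1301. With the block 5 were higher and 3 lower at 4 h, against 2327 and 2335 of the 12393. P4ha2, a prolyl hydroxylase subunit, went from a mean of 7863 normalized reads to 10644 by 4 h and down to 4966 by 32 h. Its changes were 0.44 ± 0.08 log2 at 4 h (adjusted p = 0.00123) and -0.66 ± 0.08 at 32 h (adjusted p = 1.07e-05). Plod2, a lysyl hydroxylase, went from 4260 to 5606 and down to 2217 over the same times.

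Sec23a and Sec24d, parts of the vesicle coat that carries procollagen out of the endoplasmic reticulum, were lower at 32 h, at -0.41 ± 0.11 and -0.39 ± 0.07 log2 (adjusted p = 0.00986 and 0.000634). With equal totals Sec23a missed the threshold (-0.20 log2, adjusted p = 0.133). Of 5 tested genes for removal of propeptides, 3 were lower at 32 h, against 20.4% of all genes. With equal totals 2 were lower and 1 higher, against 1301 and 5561 of all 12393 tested genes. Adamts14, which trims the amino-terminal propeptide, went from a mean of 1563 at 0 h to 2515 at 4 h and 1018 at 32 h (adjusted p = 0.00385 and 0.00297, limma), and Bmp1, which trims the other end, went from 3922 to 2796 at 32 h. Of 5 lysyl oxidases, which cross-link the finished fibres, 4 were lower at 32 h, against 20.4% of all genes. With equal totals 2 of them were lower, against 1301 of the 12393. Loxl3 went from 6889 at 0 h to 4993 at 4 h and 3502 at 32 h (-0.98 ± 0.11 log2, adjusted p = 7.68e-06), and Loxl2 from 490 to 278. Among 7 tested receptors 2 were lower at 32 h, against 20.4% of all genes. With the block 5 were lower, against 3353 of the 12393. With equal totals 1 was lower and 2 were higher, against 1301 and 5561 of the 12393. The receptors called lower by limma without either change were Itgb1, the shared subunit of collagen-binding integrins, at -0.84 ± 0.06 log2 (adjusted p = 5.17e-08), and Ddr2, a receptor kinase activated by fibrillar collagen, at -0.14 ± 0.05 (adjusted p = 0.0237). With equal totals the Ddr2 call was lost and its direction turned, to 0.07 log2 (adjusted p = 0.213), as it did with quantile normalization, to 0.09 (adjusted p = 0.146).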

How the data were processed

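The labels give RNA sequencing of total RNA with single-end reads from 18 libraries of NIH3T3 cells. Per the submitters' processing notes TopHat, HTSeq, DESeq and the build mm9 were used; versions, annotation and strand setting are not given in the sources used here. The deposited signal values are gene counts that the authors divided by a size factor for each library, rounded to 2 decimals. Whole reads were recovered from the smallest step of each column, and 100% of values came out whole within 0.02 of a read. Depth is 25.4 M to 38.9 M reads. No value column was left unassigned.

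Main values came from limma 3.58.1 in R 4.3.3 on log2(value + 1), fitted with a variance trend to the 12393 genes with a mean of at least 10 over all 18 libraries. Tests were 2-sided with Benjamini-Hochberg adjustment over all tested genes and a threshold of 0.05. A fold change is on this log2 scale and understates changes of low genes. Alternatives were pseudocounts of 0.5 and 10, no filter or a mean of 50, equal totals, quantile normalization, no trend, robust variance, the replicate block, edgeR 4.0.16 and DESeq2 1.42.0 on recovered reads, periods of 22 and 26 h, a linear term, each replicate alone, leaving out early times, and leaving out each library. The fits were tested on simulated data. The libraries of a time always differed by more than sampling noise.

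Libraries with the same replicate number deviated together in 36 of 36 pairs of times (correlation 0.230 to 0.502 across genes). The main fits did not pair libraries by this number, so counts without the block leave the pairing out. Pairing entered only through the replicate block, as an alternative. The labels do not say what a number shares. Members and lists were chosen with earlier results of these data known. Genes with values at several times are the 6 highest members, the 3 with the smallest p over time in each main class, the extremes at 32 h, members called for a rhythm or unequal daily steps, and the genes of the machinery list with the smallest p; Col6a2, Col7a1, Col11a2, Col12a1, Col17a1, Col18a1 and Col27a1 were added after their values were seen. Transcript lengths and overlaps are from GENCODE M21 (GRCm38), so no coordinates of the deposited build are printed.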

Additional observations from a re-analysis of the deposited data

Results flagged for a closer look

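For 7 genes the change from 0 h to 8 h differed from the change from 24 h to 32 h by limma's test of the difference. The difference (day 1 step minus day 2 step, log2) was -0.84 for Col4a5, -1.32 for Col10a1, -0.98 for Col4a6, -0.51 for Col8a1, -0.32 for Col16a1, 1.17 for Col5a3 and -0.76 for Col3a1. The calls of Col4a5, Col4a6, Col8a1 and Col10a1 held in every alternative. Those of Col3a1 and Col16a1 were lost with equal totals and with quantile normalization, those of Col3a1 and Col5a3 with no filter and without a variance trend, and all 3 without the second 0 h or the second 32 h library.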

How the results depend on the processing

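Counts here are of all 28 tested genes under each setting and need not be the same genes. At 4 h 8 passed, against 5 with no filter on low genes and 17 with the replicate block; at 8 h 9, against 15 with the block; at 24 h 18, against 11 with equal totals (10 lower, 1 higher) and 11 with quantile normalization (9 lower, 2 higher); between 24 h and 32 h 0, against 3 with the block; for unequal daily steps 7, against 16 with the block; and for the rhythm 0, against 1 by DESeq2 and 9 with a linear term. Leaving out each library in turn gave 3 to 9 genes at 4 h, 5 to 11 at 8 h, 9 to 20 at 24 h, 11 to 15 at 32 h, 10 to 16 between 8 h and 32 h, 18 to 20 over all times, 17 to 20 with a drift and 4 to 8 with unequal daily steps, and 0 each time between 24 h and 32 h and for the rhythm. The lowest values at 4 h, 8 h and 24 h were without the second 0 h library. The collagen share, on average 2.32% of reads, was 0.711% without Col1a1, Col1a2 and Col3a1 and 1.88% over fibrillar genes alone, by construction. Directions turned with quantile normalization for Col1a1 (0.33 at 8 h, past the threshold, 0.16 at 24 h and 0.16 at 32 h, log2, with a drift of 0.0048 per hour) and Col1a2 (0.40 at 24 h, 0.47 at 32 h and 0.019 per hour, each past the threshold), and, without 0 h and 4 h, for the drift of Col10a1 (0.0029 per hour) and Col6a2 (0.00015 per hour). For Col1a1 and Col1a2, ranked 3 and 5 by mean among all genes, the quantile setting hangs on the order of few genes. The cause of the turned directions was not tested. The block turned no direction and lost no call. Depth limits Col2a1, Col4a3 and Col6a4 most, with means of 23.2, 19.5 and 22.2 normalized reads.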
